A study of Arabidopsis thaliana with 6 samples.

Results

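The genes described here encode RALF-like (RALFL) peptides of Arabidopsis thaliana, the family of rapid alkalinization factors. They were taken as every gene with the symbol RALFL and a number that the annotation of the ATH1 array ties to a probe set of its own. This gave 11 genes with 1 probe set each, among the 13350 genes that had a probe set of their own: RALFL18, RALFL22, RALFL24, RALFL25, RALFL26, RALFL27, RALFL28, RALFL31, RALFL32, RALFL33 and RALFL34. The RefSeq gene table lists 32 genes under such a symbol, so 21 of them, and the relatives named RALF1 and RALF23, were not analysed here. The rule uses symbols and no measured value, although it was proposed with results of these data known.

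Transcript levels were measured in seedlings at 8 days of age, with 1 Affymetrix array for each RNA sample. One group of 3 arrays came from the lib mutant and the other group of 3 arrays from its wild type, both in the Columbia-0 ecotype, both untreated and both grown on vertical agar plates with half-strength Murashige and Skoog salts and sucrose. The series title places lib in the context of a partial deficiency of isoleucine, and the labels give neither the mutated gene nor the allele of lib. The labels call the arrays of a group biological replicates, name the tissue as whole seedlings in the sample records and as roots in the design text, and give no batch.

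RALF peptides are small, cysteine-containing hormones that are made as larger precursors and secreted into the cell wall. Many of them are recognised by receptor kinases of the CrRLK1L family, of which FERONIA (FER) is the best known, together with small membrane-anchored LLG proteins, and they also bind the leucine-rich repeat extensins (LRX) of the wall. In roots and seedlings RALF peptides are known for raising the pH outside the cell and restraining cell elongation, and in pollen tubes other members keep the wall intact during growth. Transcript levels say nothing of the amount of peptide.

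Values are MAS5 signals, a single number per probe set and array in arbitrary units. Differences between genotypes were tested on their log2 values with limma over all 22746 probe sets, and a Benjamini-Hochberg adjusted p under 0.05 counted as a change. Signals of different probe sets are not comparable, so the levels of different RALFL genes were not ranked. The median log2 signal of the arrays lay between 7.40 and 7.52, and each array had a median Spearman correlation of 0.980 to 0.984 with the others of its genotype and of 0.963 to 0.970 with those of the other genotype. Replicate 3 of lib had the lowest array weight, 0.507, and results are therefore also given without it. The next lowest weight was 0.649, for wild type replicate 3. The median correlation of lib replicate 3 with its own genotype, 0.981, lay within the range of the other arrays. Its median correlation with the wild type arrays, 0.963, and its median log2 signal, 7.40, were the lowest of the 6 arrays.

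Of the 11 RALFL genes, 4 were higher in lib by limma: RALFL24, RALFL27, RALFL34 and RALFL31. None was lower. At an unadjusted limma p under 0.05, 5 were higher and 1 lower, where 15.8% of all probe sets were higher and 17.1% lower. RALFL24 and RALFL27 rose at least 2-fold, RALFL34 and RALFL31 by less. The other 7 did not pass, among them the bright RALFL22, RALFL32 and RALFL33. Of all probe sets 20.7% changed: 10.4% were higher in lib and 10.3% lower. With the added demand of a 2-fold difference these shares were 4.93% in either direction and 2.44% higher in lib. The median log2 fold change was 0.14 for the 11 genes and -0.04 for all probe sets. Among probe sets brighter than the median signal of 176, where 7 of the members lie, 34.1% changed and 17.3% were higher in lib. In bulk tissue a change in the share of cells of a type and a change in RNA per cell cannot be told apart.

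**Figure D1:**
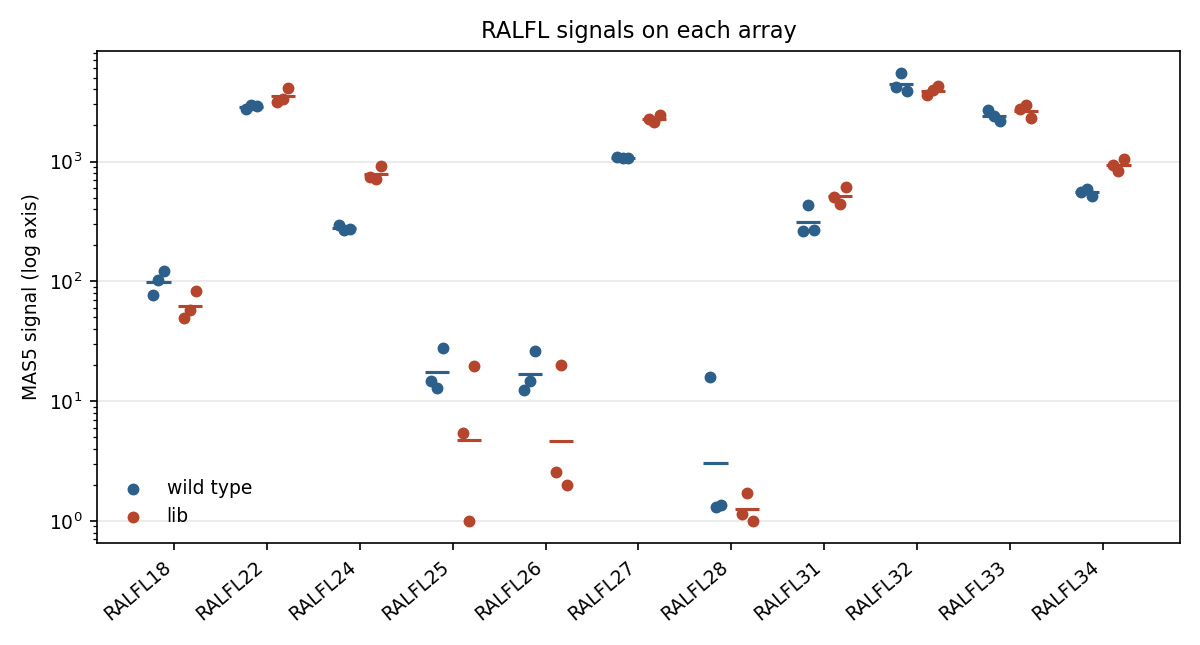
MAS5 signal (log axis, arbitrary units) of the 11 RALFL genes on each of the 3 wild type arrays (blue) and 3 lib arrays (red), with the mean of the log2 values as a short line. RALFL24, RALFL27, RALFL31 and RALFL34 lie higher on every lib array than on any wild type array, while RALFL25, RALFL26 and RALFL28 stay at or under a signal of 27.9 on all 6 arrays.

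RALFL24 (AT3G23805) had the largest rise of the 11 genes. Its signals were 737, 710 and 921 on lib replicates 1, 2 and 3, and 296, 269 and 274 on wild type replicates 1, 2 and 3. Every lib array was thus more than double the brightest wild type array, and the lib arrays were spread more widely than the wild type arrays, with a mean log2 signal of 9.62 ± 0.20 (SD, n = 3) against 8.13 ± 0.07 (SD, n = 3). The log2 fold change was 1.49 (SE 0.13, limma adjusted p = 0.000162), a 2.81-fold rise with a 95% interval of 2.31 to 3.41. In order of the log2 fold change it stood at place 544 of 22746. Without lib replicate 3, its brightest array, the log2 fold change was 1.37 (limma adjusted p = 0.000781).

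RALFL27 (AT3G29780) was about double in lib. The lib signals were 2243, 2149 and 2426, and those of the wild type 1090, 1060 and 1067. The replicates of this gene were the tightest of the 11, with mean log2 signals of 11.15 ± 0.09 (SD, n = 3) in lib and 10.07 ± 0.02 (SD, n = 3) in the wild type. It rose by 1.08 on the log2 scale (SE 0.09, limma adjusted p = 0.000144), a 2.12-fold rise with a 95% interval of 1.85 to 2.42. Its p was the smallest of the 11 genes, and without lib replicate 3 the log2 fold change was 1.03.

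RALFL34 (AT5G67070) encodes a peptide known for acting through the receptor kinase THESEUS1 (THE1) and for a part in the initiation of lateral roots. It had signals of 930, 829 and 1055 on the lib arrays and of 558, 593 and 513 on the wild type arrays, and the groups did not overlap. The log2 fold change was 0.75 (SE 0.12, limma adjusted p = 0.00225), a 1.69-fold rise with a 95% interval of 1.41 to 2.02. Without lib replicate 3 it was 0.67 (limma adjusted p = 0.00741).

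RALFL31 (AT4G13950) rose by a similar amount with far less even replicates. Its signals were 507, 443 and 612 in lib and 265, 437 and 268 in the wild type. Wild type replicate 2 lay just under the lowest lib array, lib replicate 2, and away from the other wild type arrays. The log2 fold change was 0.72 (SE 0.21, limma adjusted p = 0.0373, 95% interval 0.25 to 1.18). This call was lost without lib replicate 1 (0.73, limma adjusted p = 0.103), without lib replicate 3 (0.59, limma adjusted p = 0.125), without wild type replicate 1 (0.59, limma adjusted p = 0.136) and without wild type replicate 3 (0.60, limma adjusted p = 0.128). Without wild type replicate 2 the log2 fold change was 0.95 (limma adjusted p = 0.00906).

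The 3 remaining bright members had smaller differences. RALFL22 (AT3G05490), whose peptide is known to work with FER and with a wall-bound LRX protein in root hairs, had signals of 3156, 3354 and 4119 in lib and 2753, 2948 and 2891 in the wild type. Each lib array was above each wild type array, yet the gene did not pass (log2 fold change 0.30, SE 0.11, limma adjusted p = 0.0980). Without lib replicate 3 the value was 0.19 (limma adjusted p = 0.194). With RALFL22, the groups did not overlap for 5 of the 11 genes, as for 38.1% of all probe sets.

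RALFL33 (AT4G15800), a peptide that binds FER, had signals of 2743, 2947 and 2292 in lib and 2691, 2394 and 2170 in the wild type, and the groups overlapped. Its log2 fold change was 0.14 (SE 0.12, limma adjusted p = 0.493), with a 95% interval of -0.14 to 0.41. RALFL32 (AT4G14010) had signals of 3568, 3941 and 4231 in lib and 4173, 5466 and 3907 in the wild type, again with overlap. Its log2 fold change was -0.19 (SE 0.14, limma adjusted p = 0.369), with a 95% interval of -0.50 to 0.11. For both genes the interval leaves out a 2-fold change in either direction.

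**Figure D2:**
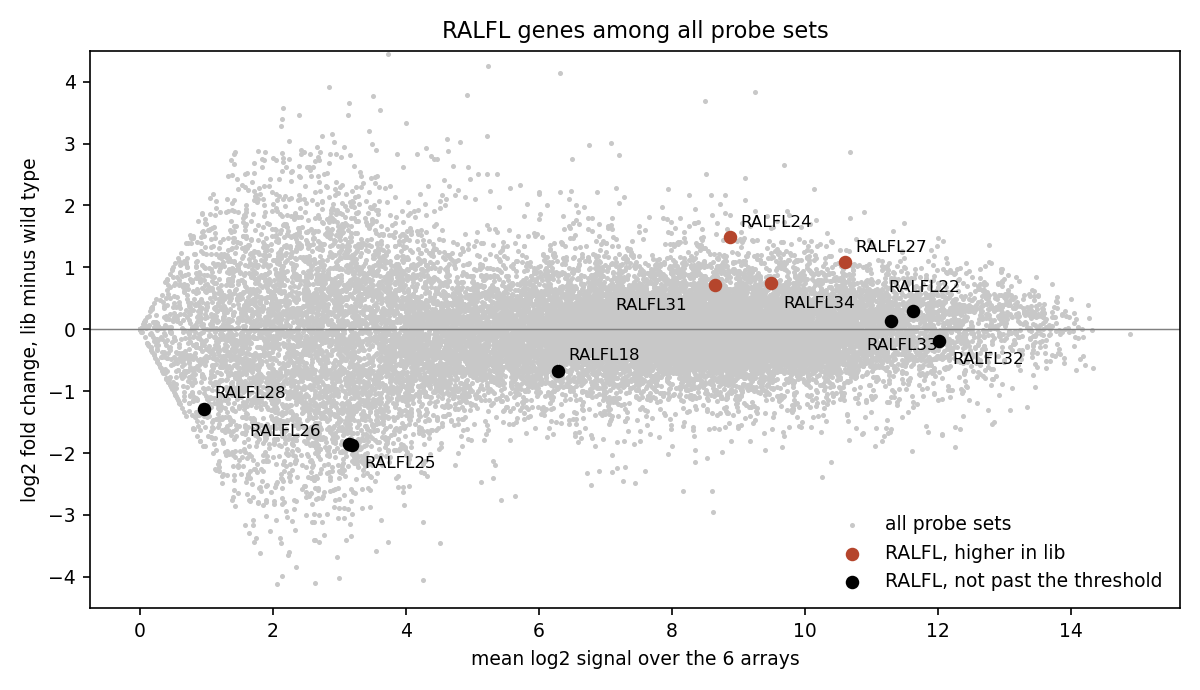
Log2 fold change (lib minus wild type) against the mean log2 signal over the 6 arrays for all 22746 probe sets (grey), with the RALFL genes past the threshold in red and the other RALFL genes in black. The 4 called genes lie among bright probe sets, and RALFL25, RALFL26 and RALFL28 lie in the dim part of the scale where the scatter is widest. 1 probe set lies beyond the vertical axis.

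The called genes were not tested directly against the bright ones that did not pass. The unadjusted limma intervals of the log2 fold change were 1.21 to 1.77 for RALFL24 and 0.888 to 1.275 for RALFL27. Both lay wholly above those of RALFL22 (0.04 to 0.55), RALFL33 (-0.14 to 0.41) and RALFL32 (-0.50 to 0.11). The intervals of RALFL34 (0.49 to 1.01) and RALFL31 (0.25 to 1.18) overlapped that of RALFL22, and RALFL31 also that of RALFL33. For RALFL34 and RALFL31, a change unequal to that of RALFL22 is thus not shown.

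Of the 4 dim members, RALFL18 (AT2G33130) had signals of 49.3, 57.6 and 83.4 in lib and 76.6, 103 and 121 in the wild type. The groups overlapped at lib replicate 3 and wild type replicate 1, and the log2 fold change was -0.67 (SE 0.29, limma adjusted p = 0.142). RALFL25 (AT3G25165) and RALFL26 (AT3G25170) are next to each other on the chromosome and are counted among the RALF peptides of pollen. RALFL25 had signals of 5.43, 1.00 and 19.8 in lib and 14.6, 12.9 and 27.9 in the wild type.

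RALFL26 had signals of 2.54, 20.1 and 1.98 in lib and 12.3, 14.8 and 26.2 in the wild type. The lib arrays of these neighbours were scattered over more than a factor of 10, with replicate 3 the brightest for RALFL25 and replicate 2 for RALFL26. Their log2 fold changes were -1.87 (SE 1.01, limma adjusted p = 0.237) and -1.85 (SE 0.91, limma adjusted p = 0.193). With log2(signal + 16) they were -0.52 and -0.54. The size of both values depended on which lib array was left out. RALFL26 was at -1.42 without lib replicate 1, at -1.24 without lib replicate 3 and at -2.91 without lib replicate 2, where alone it passed (limma adjusted p = 0.0311). RALFL25 was at -0.74 without lib replicate 2 and at -2.90 without lib replicate 3, and passed in neither.

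RALFL28 (AT4G11510) had signals of 1.14, 1.71 and 1.00 in lib and 15.9, 1.30 and 1.35 in the wild type, where a signal of 1.00 is the lowest value in the table. All but wild type replicate 1 were at or near this floor, and the log2 fold change of -1.28 (SE 1.17, limma adjusted p = 0.499) rests on that array. Detection calls were not used here, so whether these dim members were expressed at all is not known.

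**Figure D3:**
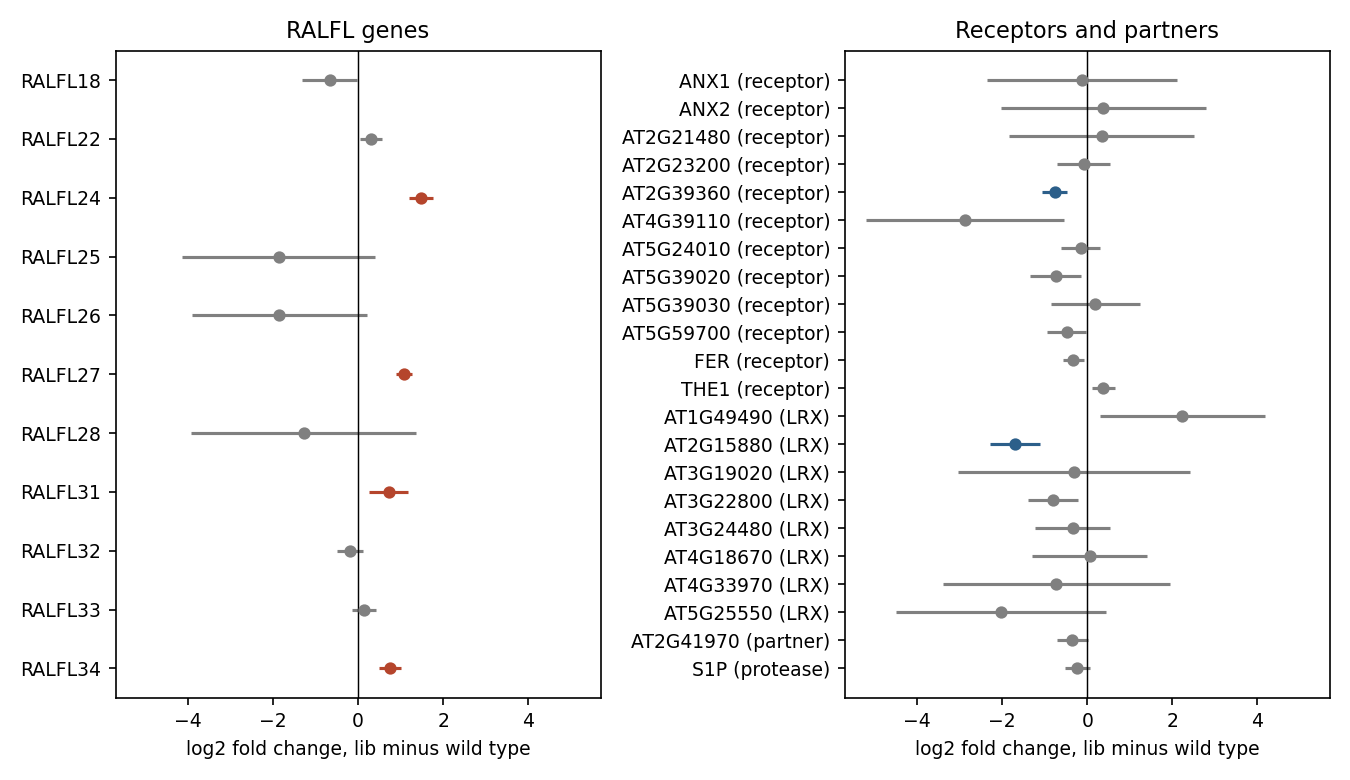
Log2 fold change (lib minus wild type) with its unadjusted 95% interval from limma for the 11 RALFL genes (left) and the 22 measured genes of RALF signalling (right). Red marks a limma adjusted p under 0.05 with higher values in lib, blue the same with lower values, and grey all others; intervals are wide for dim genes such as RALFL28, and AT2G15880 and AT2G39360 are the blue ones.

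The members were also compared over the 6 arrays. Among the called genes RALFL24, RALFL27 and RALFL34 had Pearson correlations of 0.997 (RALFL24 with RALFL27), 0.978 (RALFL24 with RALFL34) and 0.974 (RALFL27 with RALFL34). All 3 share the difference between genotypes and the same hybridisations. Once each group's mean was removed, the correlations were 0.972, 0.732 and 0.808. RALFL31 had correlations of 0.808, 0.810 and 0.899 with RALFL24, RALFL27 and RALFL34, and of 0.245, 0.342 and 0.783 once the means were removed. Values above 0.808 were found for pairs with no shared call, also with the means removed. Examples were 0.902 for RALFL25 with RALFL27, 0.873 for RALFL31 with RALFL32 and 0.863 for RALFL18 with RALFL22. No other pair reached the 0.972 of RALFL24 with RALFL27. Lib replicate 3 was the brightest lib array for 8 of the 11 genes, RALFL26, RALFL28 and RALFL33 being the exceptions. These exceptions all had their lowest lib signal on replicate 3, where the others had their highest. Their deviations correlated with those of RALFL24 at -0.671 for RALFL26, 0.184 for RALFL28 and -0.550 for RALFL33.

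Genes with the most similar profile over the 6 arrays were sought among 6068 bright probe sets of 1 gene. For RALFL24 these were AT5G08565 (SPT4-1, r = 0.9999), AT1G16740 (r = 0.9984) and AT1G68680 (r = 0.9983). For RALFL27 they were AT1G64880, AT3G25400 and AT1G26750, with r between 0.9990 and 0.9993. RALFL34 was closest to AT2G27330, AT1G17510 and AT5G57860 (r of 0.9973 to 0.9987), and RALFL31 to AT1G11780, AT5G15550 and AT5G40710 (r of 0.9904 to 0.9946). These profiles share the arrays and the difference between the genotypes, and the correlations over 6 arrays are given as a description.

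The remainder of the pathway was read from a list of 46 genes for receptors, co-receptors, wall proteins, the protease and downstream partners, of which 22 had a probe set of their own. Of these 22, 2 were lower in lib by limma (9.09%, against 10.3% of all probe sets) and none was higher (against 10.4%). At an unadjusted limma p under 0.05, 7 were lower and 2 higher, where all probe sets had 17.1% lower and 15.8% higher. Their median log2 fold change was -0.32. Only 5 of the 22 were brighter than the median signal.

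Among 12 measured receptor kinases of the CrRLK1L family (17 listed), 1 changed. AT2G39360 had signals of 153, 165 and 161 in lib and 287, 265 and 264 in the wild type, with no overlap. It fell by 0.77 on the log2 scale (SE 0.13, limma adjusted p = 0.00400). FER, the receptor of several RALF peptides, had signals of 1670, 1800 and 1792 in lib and 2116, 1950 and 2567 in the wild type. Every lib array was below every wild type array, but the gene did not pass (log2 fold change -0.33, SE 0.11, limma adjusted p = 0.0738).

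THE1, the receptor of the RALFL34 peptide, had signals of 469, 480 and 577 in lib and 394, 357 and 419 in the wild type. Its log2 fold change of 0.38 (SE 0.12, limma adjusted p = 0.0565) also did not pass, although the groups did not overlap. Both receptors passed when only probe sets brighter than the median were tested, FER with a limma adjusted p = 0.0482 and THE1 with a limma adjusted p = 0.0358. The receptors known from pollen were all dim. ANX1 had signals of 1.03 to 3.54 over the 6 arrays, ANX2 of 1.35 to 24.0 and AT2G21480 of 1.77 to 28.3, each with overlapping groups. AT4G39110 had signals of 24.6, 2.69 and 1.00 in lib and 29.7, 32.6 and 27.3 in the wild type, without overlap. Its log2 fold change of -2.88 (SE 1.03, limma adjusted p = 0.0824) was the most negative of the list and did not pass.

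Of 8 measured LRX wall proteins (11 listed), 1 was lower in lib. AT2G15880, of the group of LRX proteins known from pollen, had signals of 82.6, 50.8 and 54.7 in lib and 213, 156 and 238 in the wild type. The groups were well apart, and it fell by 1.70 on the log2 scale (SE 0.26, limma adjusted p = 0.00222). The level of the other 7 was also dim, no higher than 137.2 on any array. Among them AT1G49490 had signals of 15.3, 6.98 and 3.37 in lib and 2.12, 1.16 and 1.42 in the wild type, without overlap. Its log2 fold change of 2.23 (SE 0.86, limma adjusted p = 0.103) was the most positive of the signalling list and did not pass. S1P, the protease that cuts the precursors of some RALF peptides, had signals of 324, 311 and 255 in lib and 338, 350 and 355 in the wild type and did not pass (log2 fold change -0.24, SE 0.13, limma adjusted p = 0.243). The only downstream partner measured, AT2G41970, did not pass either (log2 fold change -0.35, limma adjusted p = 0.168), and none of the 4 LLG co-receptors was analysed here.

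**Figure D4:**
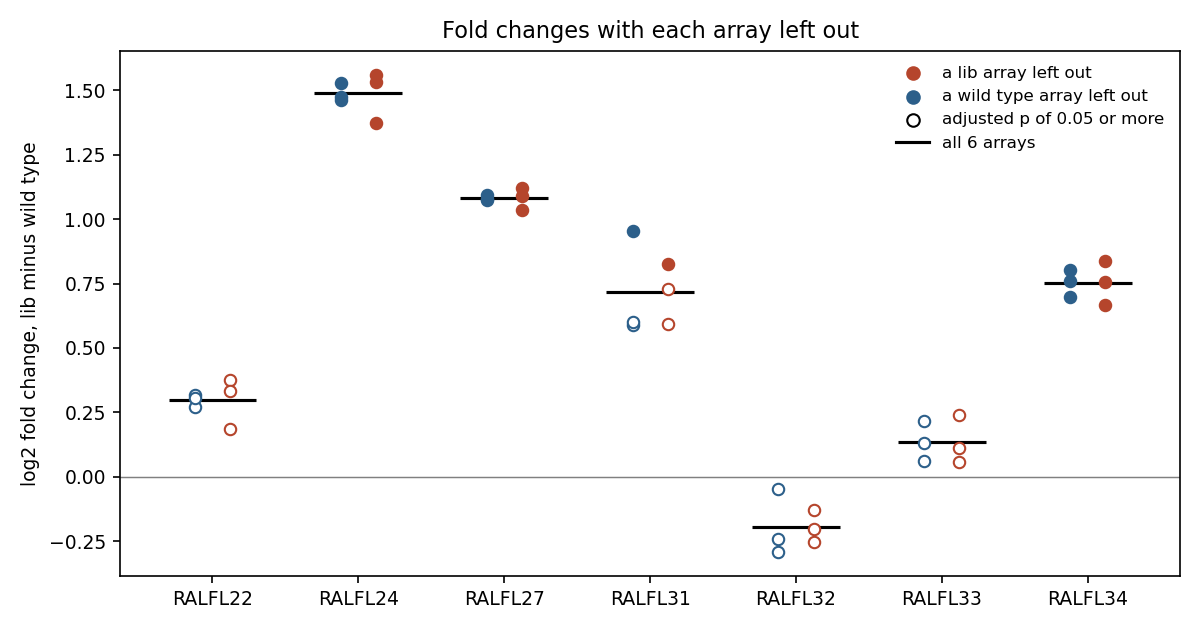
Log2 fold change (lib minus wild type) of the 7 bright RALFL genes with all 6 arrays (black line) and with each lib array (red) or wild type array (blue) left out; open circles have a limma adjusted p of 0.05 or more. RALFL24, RALFL27 and RALFL34 stay filled throughout, RALFL31 is open in 4 of 6 cases, and the others are open in all.

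Markers of tissues were measured on the same arrays. The summed signal of 4 shoot markers was 1092 to 1492 on the lib arrays and 1658 to 2636 on the wild type arrays. Most of this sum came from the 2 that were lower in lib. These were LHCB4.1 at a log2 fold change of -0.62 (limma adjusted p = 0.0376) and RCA at -0.62 (limma adjusted p = 0.0493). The dimmer PRK (-0.70, limma adjusted p = 0.276) and SBPASE (-0.28, limma adjusted p = 0.696) had overlapping groups and did not pass. LHCB4.1 lost its call in 8 of 15 alternatives, also with any 1 array but wild type replicate 3 left out, and RCA in 12 of 15, also with any 1 array left out. PYK10, the only measured marker of 3 listed for the root, was lower at -0.47 (limma adjusted p = 0.0393), a call lost in 11 of 15 alternatives and with any 1 array left out. The 2 measured root hair markers of 4 listed summed to between 1434 and 1695 on the lib arrays and between 1213 and 1902 on the others, and neither changed. The 3 measured pollen markers of 5 listed had a summed signal between 7.58 and 33.2 on the lib arrays and between 33.9 and 43.0 on the others. These 3 are the receptors ANX1, ANX2 and AT4G39110 described above, and AT4G39110 alone had groups that did not overlap. The part of tissue make-up in the RALFL differences was not tested.

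The folds of the authors' deposited table are ratios of mean linear signals, while the limma folds above come from mean log2 signals. In the authors' deposited table RALFL24 has a fold of 2.82 (p = 0.00286) and RALFL27 a fold of 2.12 (p = 0.00142), the only 2 members with an unadjusted p under 0.05 and a fold of at least 2. RALFL34 has a fold of 1.69 (p = 0.00574) and RALFL31 a fold of 1.61 (p = 0.0751) in the authors' deposited table. After Benjamini-Hochberg adjustment over all probe sets, the p-values of the authors' deposited table for RALFL24, RALFL27 and RALFL34 are 0.0787, 0.0679 and 0.0935.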

How the data were processed

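Per the submitters' processing notes the authors made the signals with MAS5 (its version is not given in the sources used here), and the deposited table holds them as log2 values, used as deposited. On the linear scale the arrays share a 2% trimmed mean of 496, so they had been scaled; 405 to 734 probe sets per array stand at the floor. The authors' second deposited table gives every probe set a lib over wild type ratio with its p-value; 22737 of these p-values equal an unequal-variance test of the log2 values within 1e-06. Of 22746 probe sets, 13513 have 1 gene in the platform annotation. Symbols and loci came from RefSeq's TAIR10.1 gene table, for 10 members by gene identifier and for RALFL22 by symbol.

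limma 3.58.1 in R 4.3.3 (lmFit, eBayes with intensity trend, two-sided) was fitted to all probe sets and tested on simulated data. All members were named. In the signalling list every called gene and FER, THE1, LLG1 and S1P were to be named; others named were chosen after their values were seen. Likeness was the 3 highest Pearson correlations per called member among probe sets above the median signal. The members and lists were chosen with earlier results of these data known, and the neighbouring genes after the values were seen. With 3 arrays a group, their number limits the precision. Alternatives were no intensity trend, quantile normalization, median centring, log2(signal + 16), only bright probe sets, a replicate block, array weights, a stricter threshold, each array left out and the methods' t-test.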

Additional observations from a re-analysis of the deposited data

How the results depend on the processing

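RALFL24, RALFL27 and RALFL34 were called higher in lib under every alternative except the methods' t-test after Benjamini-Hochberg adjustment, with log2 fold changes of 1.37 to 1.56, 1.03 to 1.12 and 0.67 to 0.84. RALFL31 lost its call in 8 of 15 alternatives, among them without the intensity trend (adjusted p = 0.136). The methods' t-test called 0 of 11 members after adjustment and 3 at an unadjusted p under 0.05, 0 of 22 signalling genes (4 unadjusted) and 66 of all probe sets (5383 unadjusted); it estimates the spread of each probe set from its own arrays alone. The count over all probe sets was 2383 without the intensity trend and 2257 at an adjusted p under 0.01. Leaving out 1 array gave 2705 to 3747 calls over all probe sets, 3 to 5 among the members and 2 to 3 among the signalling genes; the 2705 came without lib replicate 1 and the 5, with RALFL26 lower, without lib replicate 2. With array weights 6 signalling genes were called, 5 of them lower, FER included; the cause was not tested. AT2G39360 and AT2G15880 lost their calls in the methods' t-test and in no other alternative that tested them. Arrays with the same replicate number did not deviate together over all probe sets (r of 0.013, -0.019 and -0.025). Among bright probe sets these r were 0.047, -0.202 and -0.225, and pairs of different number lay between -0.122 and 0.253. Deviations from means of only 3 arrays cannot show whether arrays of the same number shared a batch. With the replicate number as a block there were 3442 calls, 3 members and 3 signalling genes, and RALFL31 had an adjusted p = 0.0739. The annotation tied no other RALF gene to a probe set of its own, so none could be counted. It gives no gene for 8730 of the 22746 probe sets. The dim RALFL25, RALFL26 and RALFL28 are limited by their signal.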

Other observations

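The genes next to each member on the chromosome were read from the same limma results, a choice made after the values were seen. Where such a neighbour had a probe set of its own and was no RALFL gene, it is named here. Of all probe sets 10.4% were higher in lib, and of those brighter than the median signal 17.3%. Whether position on the chromosome plays a part was not tested. Both genes flanking RALFL32, which did not pass, were higher in lib: AT4G14000 at a log2 fold change of 0.49 (limma adjusted p = 0.00735) and AT4G14020 at 1.21 (limma adjusted p = 0.00690). AT4G15790, next to RALFL33, was higher at 0.98 (limma adjusted p = 0.00253), and AT3G05500, next to RALFL22, at 0.32 (limma adjusted p = 0.0259). AT3G05480 (RAD9), on the other side of RALFL22, stood at -1.01 (limma adjusted p = 0.359) and AT3G25160, next to RALFL25, at -1.57 (limma adjusted p = 0.369), without passing. No neighbour of RALFL24, RALFL27, RALFL31 or RALFL34 is tied to its own probe set by the annotation.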
